A study of Homo sapiens with 13 samples.

Results

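The 38 genes described here are the members of the 4 human HOX clusters, chosen by gene symbol: 10 genes of HOXA, 10 of HOXB, 9 of HOXC and 9 of HOXD. They were read by 52 probes, out of 47230 probes and 30844 gene names on the array. The rule that picks them is by symbol. The samples came from the HES3 human embryonic stem cell line carrying a GFP reporter of RUNX1C (labelled RUNX1CGFPw), a single line kept on mouse feeder cells, so every array shared that reporter. Differentiation ran in spin embryoid bodies in APEL medium. Activin, BMP4, VEGF and SCF were given over the first 4 days, and from day 4 fresh medium held FGF2 and IGF2 beside BMP4, VEGF and SCF. Unsorted cells were measured on days 0, 1, 2, 3, 4, 5, 6, 7 and 8. On day 7 the cells were also sorted by CD34 and CD41 surface protein into a CD34- CD41- fraction, a CD34lo CD41- fraction, a CD34hi CD41- fraction and one that was CD34lo CD41lo. There was 1 array for each day or fraction, so no level below has a replicate error, and a difference between a pair of arrays has no replicate check. The 9 unsorted arrays lay on 1 chip and the 4 fractions on another, so sorting and chip cannot be told apart where they are compared.

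HOX genes encode homeodomain transcription factors that give cells their position along the head-to-tail axis of the embryo. Within a cluster the genes are numbered from the end expressed first and most anteriorly to the end expressed later and more posteriorly, an order known as collinearity. HOX proteins bind DNA together with PBX and MEIS partner proteins, CDX factors act upstream of many HOX genes, and Polycomb proteins such as EZH2 keep the clusters silent in embryonic stem cells. In blood formation HOXB4 has been studied for its effect on progenitor expansion, and HOXA genes of the middle of the cluster, such as HOXA9, mark human blood stem cells and their progenitors.

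Promoters of 20 of the 38 members could be matched in the RefSeq promoter table (build GRCh38.p14). The 250 bases before the start are shown for all 4 of these that were detected on any array. HOXB1 was detected in 1 sorted fraction, at a level just above the detection limit of its array. HOXC4 was detected on the last day, HOXD1 on 2 early days and HOXD3 at a low level through most of the course. Capitals mark a match, on either strand, to the PBX-HOX motif TGATNNAT or to the CDX motif TTTATG; neither motif's letters contain the other's.
HOXB1, chr17:48531012-48531261, minus strand: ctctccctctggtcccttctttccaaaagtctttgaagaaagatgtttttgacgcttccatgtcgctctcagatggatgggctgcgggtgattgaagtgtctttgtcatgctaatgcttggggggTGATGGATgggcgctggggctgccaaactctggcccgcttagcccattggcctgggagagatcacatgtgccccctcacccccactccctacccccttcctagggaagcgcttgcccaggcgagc
HOXC4, chr12:54016638-54016887, plus strand: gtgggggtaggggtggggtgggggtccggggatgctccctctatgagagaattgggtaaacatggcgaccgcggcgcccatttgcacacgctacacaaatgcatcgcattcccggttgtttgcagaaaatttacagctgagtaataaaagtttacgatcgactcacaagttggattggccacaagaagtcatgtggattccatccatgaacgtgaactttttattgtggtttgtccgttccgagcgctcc
HOXD1, chr2:176188418-176188667, plus strand: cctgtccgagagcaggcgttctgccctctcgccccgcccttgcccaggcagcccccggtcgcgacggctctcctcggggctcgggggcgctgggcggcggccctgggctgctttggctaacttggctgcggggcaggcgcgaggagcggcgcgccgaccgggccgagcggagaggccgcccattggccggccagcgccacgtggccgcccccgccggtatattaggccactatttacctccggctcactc
HOXD3, chr2:176157057-176157306, plus strand: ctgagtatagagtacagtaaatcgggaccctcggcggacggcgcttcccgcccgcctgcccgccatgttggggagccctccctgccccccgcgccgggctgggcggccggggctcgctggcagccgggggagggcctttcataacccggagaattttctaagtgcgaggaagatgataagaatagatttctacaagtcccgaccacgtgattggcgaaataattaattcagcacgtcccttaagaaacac
HOXB1 held 1 PBX-HOX match, and the letters of neither motif were in the other 3 windows. HOXC4 and HOXC5 have the same annotated start and therefore the same window, which is counted for each of them. Of the 20 matched members, 3 (15%) held the PBX-HOX motif, against 6.47% of 35114 promoters. The CDX motif was in 3 of 20 (15%), against 9.64% of all promoters. The 20 include none of HOXA5, HOXB2 to HOXB8, HOXC6, HOXC8 and HOXC13. Among the genes holding either motif, only HOXB1 was detected on any array, so these shares do not describe the HOX genes that rose.

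At the detection limit used here, expression was detected from the HOXB cluster far more widely than from the other clusters. A gene was taken as detected where a probe had a detection p below 0.01 on that array. On at least 1 of the 9 days 14 of 38 members were detected (36.8%), against 53.5% of all gene names. These were 7 of 10 HOXB genes (HOXB2 to HOXB8), 4 of 9 HOXC genes (HOXC4, HOXC6, HOXC8 and HOXC13), 2 of 9 HOXD genes (HOXD1 and HOXD3) and 1 of 10 HOXA genes (HOXA5). The HOXA and HOXD counts depend on the limit: at a detection p below 0.05 they were 4 of 10 and 5 of 9. On at least 1 of the 4 fractions 11 members (28.9%) were detected, 8 of them HOXB genes, 2 HOXC, 1 HOXD and 0 HOXA, against 49.1% of all gene names. Over the 13 arrays 15 members were detected (39.5%, against 55.8% of all gene names), HOXB1 being the one found in a fraction only. The 23 members not detected on any array were HOXA2, HOXA3, HOXA4, HOXA6, HOXA7, HOXA9, HOXA10, HOXA11, HOXA13, HOXB9, HOXB13, HOXC5, HOXC9, HOXC10, HOXC11, HOXC12, HOXD4, HOXD8, HOXD9, HOXD10, HOXD11, HOXD12 and HOXD13. An undetected probe gives only an upper bound for that probe, at the detection floor of its array. The floors lay between 5.29 and 5.73 on the normalized log2 scale. The bound does not hold for the gene, since 1 HOXB6 probe was undetected on all 13 arrays while another reached 9.67. Several undetected members, HOXB9, HOXB13 and HOXC9 among them, were read by 1 probe only.

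The number of HOXB genes detected was 2, 1 and 2 on days 0, 1 and 2, then 6 on day 3 and 7 on each of days 4 to 8. HOXA was detected only through HOXA5, on days 1 and 2. HOXC had between 1 and 4 genes detected on every day, with 1 on day 3 and 4 on day 8. HOXD had 1, 2 and 2 genes on days 0 to 2, and 0 or 1 on each later day. In all, detected members went from 5 on day 0 to 12 on day 8, while the share of all gene names detected stayed between 37.7% and 43.7% over the 13 arrays.

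**Figure D1:**
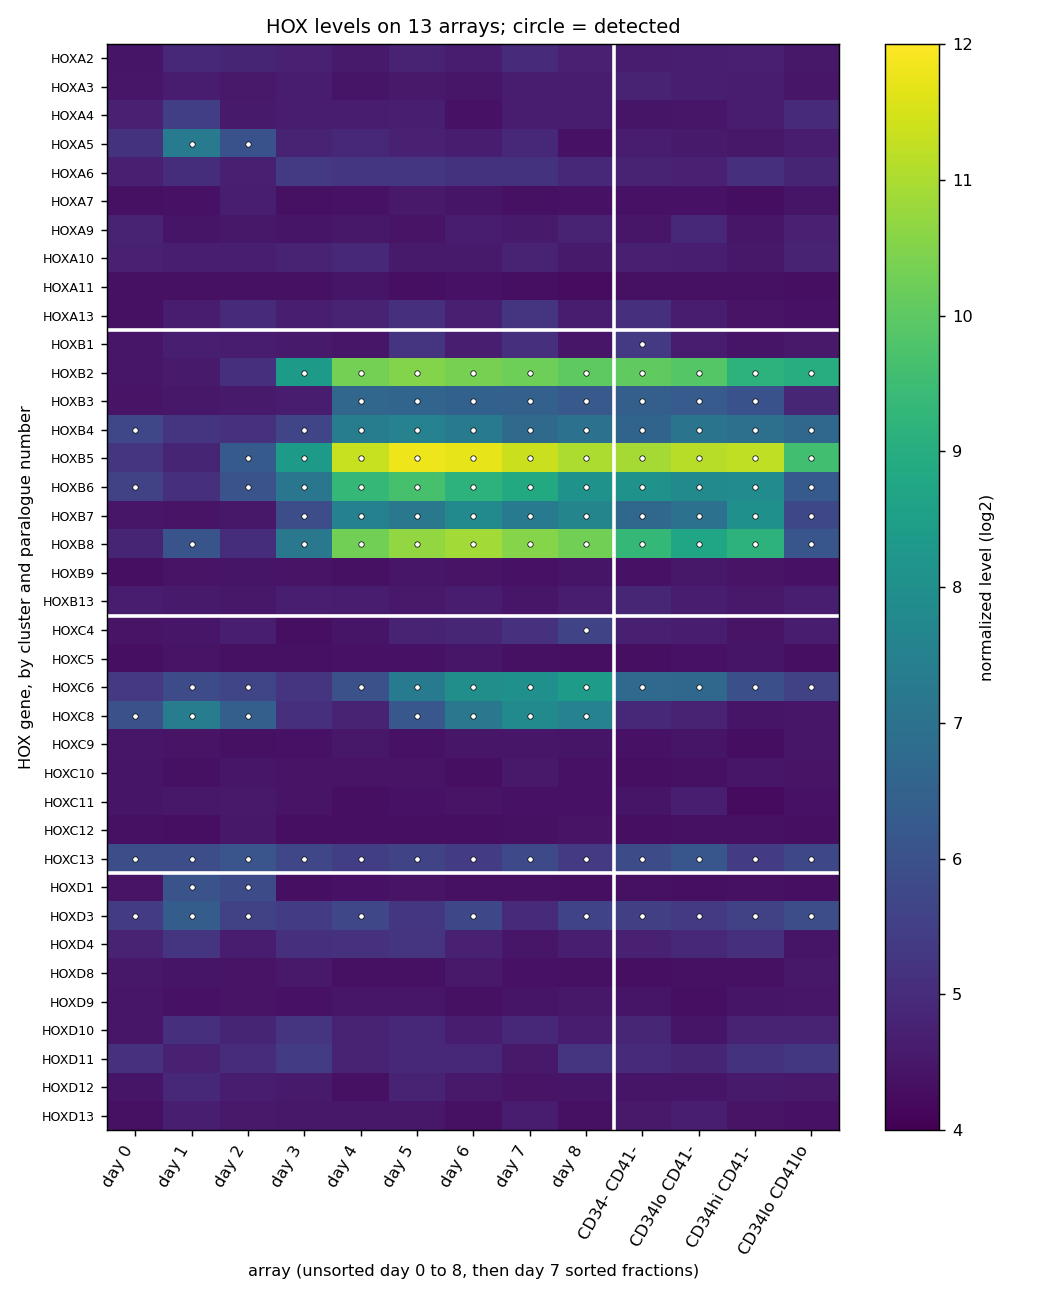
Normalized log2 level of the brightest probe of each of the 38 HOX genes (rows, in cluster and number order) on the 9 unsorted arrays and the 4 day 7 fractions (columns); colour gives the level and a white circle marks detection. HOXB2 to HOXB8 were detected on every day from day 4 on, and HOXA genes show circles only for HOXA5 on days 1 and 2. Levels of different probes are not comparable with each other, so colours should be compared along a row.

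Over the days, the 14 detected members were fitted together with all 17657 detected genes by a spline of 3 degrees of freedom in limma. A trend over days passed at an adjusted p below 0.05 for 9 of the 14, where 38.8% of all tested genes passed. From day 0 to day 4 the genes that rose (adjusted p below 0.05, and 2-fold or more by the fit) numbered 6 of 14 (HOXB2, HOXB3, HOXB5, HOXB6, HOXB7 and HOXB8), against 6.28% of all tested genes. From day 4 to day 8 they numbered 2 (HOXC4 and HOXC6), against 4.94%, and over days 0 to 8 these 8 together, against 11.8%. By limma's moderated test 0 members fell in each of the 3 intervals, where 5.92%, 2.64% and 10.2% of all tested genes fell, and at an unadjusted p below 0.05 the count was also 0, against 2663, 2009 and 3489 of the 17657 genes. A member enters the fit only if it is detected, so these counts describe the detected members and are not a property of all 38. With no filter, and all 38 members among 34114 features, the trend passed for 9 members (23.7%, against 18.9% of all features), 5 rose from day 0 to day 4 (13.2% against 2.63%), 2 from day 4 to day 8 (5.26% against 2.16%) and 7 from day 0 to day 8 (18.4% against 5.4%).

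The median fitted log2 change of the 14 was 0.92 from day 0 to day 4, 0.24 from day 4 to day 8 and 1.45 from day 0 to day 8, beside -0.00, -0.04 and -0.04 over all tested genes. Fitted changes use the levels of undetected probes as they stand, and so are not bounds. Between the single arrays, with undetected levels raised to the floor, the member medians were 1.69 from day 0 to 4 (11 members), -0.10 from day 4 to 8 (12 members) and 1.92 from day 0 to 8 (12 members). Over all tested genes detected on either day the floored medians were -0.03, -0.04 and -0.06. The fitted and floored member medians for days 4 to 8 thus had opposite signs, and they cover different members. The sign also differed for some genes detected on both days. HOXB2 was fitted at 0.31, while its level was 10.31 on day 4 and 10.01 on day 8. Over all 38 members with no filter the fitted medians were 0.04, -0.01 and 0.03.

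HOXB2, at the early end of the cluster and in the mouse a regulator of hindbrain segments and facial nerve cells, was first detected on day 3. Its levels on days 0 to 8 were 4.47, 4.57, 5.06, 8.36, 10.31, 10.50, 10.37, 10.23 and 10.01 on the log2 scale. The arrays of days 0 to 2 were all low and those of days 4 to 8 all high, with day 3 between them. The day 5 level was at least 35-fold above day 0, and the fitted change from day 0 to day 4 was 5.39 ± 0.75 (SE) in log2 (limma, adjusted p = 0.00225). In these unsorted samples more cells expressing a gene and more RNA per cell cannot be told apart.

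HOXB3, which in the mouse acts with HOXB2 and HOXB4 in the hindbrain and pharyngeal arches, was the last of the 7 to be detected. Its levels were 4.41, 4.53, 4.57, 4.65, 6.65, 6.60, 6.47, 6.44 and 6.25 on days 0 to 8. The first 4 days were undetected and the last 5 lay within a narrow range well above them. Day 4 was at least 2.42-fold above day 0, and the fitted rise to day 4 was 1.51 ± 0.40 (SE) in log2 (limma, adjusted p = 0.0363). That call was lost with no filter (adjusted p = 0.076) and without day 1, 5 or 7 (adjusted p = 0.054, 0.0689 and 0.0629).

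HOXB4, the member best known for its effect on blood progenitors, was already detected on day 0. Its levels were 5.70, 5.19, 5.15, 5.67, 7.39, 7.55, 7.25, 6.75 and 6.99, undetected on days 1 and 2. Every day from day 4 on lay above every earlier day, and day 5 was 3.61-fold above day 0. Its trend over days passed (limma, adjusted p = 0.006), but its fitted change from day 0 to day 4, 1.18 ± 0.44 (SE) in log2, did not (limma, adjusted p = 0.11).

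HOXB5, a factor that acts in the mouse in lung and vagal neural crest development, was first detected on day 2. Its levels were 5.24, 4.82, 6.27, 8.36, 11.33, 11.80, 11.69, 11.34 and 11.03. Days 0 and 1 were low, and each day from day 2 to day 5 was higher than the one before. Day 5 was at least 86.2-fold above day 0, and the fitted rise from day 0 to day 4 was 5.57 ± 0.66 (SE) in log2 (limma, adjusted p = 0.00112).

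HOXB6, expressed in lateral plate mesoderm and in red cell precursors, was near the floor on day 0. Its levels were 5.59, 5.11, 6.06, 7.14, 9.33, 9.67, 9.16, 8.87 and 8.10. Day 5 was 16.9-fold above day 0, and day 8 lay below each of days 4 to 7. The fitted rise from day 0 to day 4 was 3.34 ± 0.48 (SE) in log2 (limma, adjusted p = 0.00259), while the fitted change from day 4 to day 8, -0.70 ± 0.48 (SE), did not pass (limma, adjusted p = 0.444). The brightest of its 3 probes carried these values. The second, detected on 6 days, stayed between 4.90 and 5.59, and the third, between 4.43 and 5.25, was not detected on any day.

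HOXB7, a factor studied in the growth of several tumour types, had levels of 4.49, 4.41, 4.51, 5.90, 7.51, 7.19, 7.81, 7.33 and 7.65 on days 0 to 8. The first 3 days were undetected, day 3 was just above the floor and days 4 to 8 were all higher. Day 6 was at least 5.41-fold above day 0, and the fitted rise to day 4 was 2.46 ± 0.47 (SE) in log2 (limma, adjusted p = 0.00899).

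HOXB8, which blocks the maturation of myeloid cells when forced on, was the most posterior HOXB gene detected. Its levels were 4.84, 6.07, 5.05, 7.21, 10.28, 10.70, 10.89, 10.55 and 10.31. Detection on day 1 was not kept on day 2, and every day from day 3 on was above days 0 to 2. Day 6 was at least 45.9-fold above day 0, and the fitted rise to day 4 was 4.23 ± 0.69 (SE) in log2 (limma, adjusted p = 0.00459). The next members of the cluster, HOXB9 and HOXB13, were not detected on any array.

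**Figure D2:**
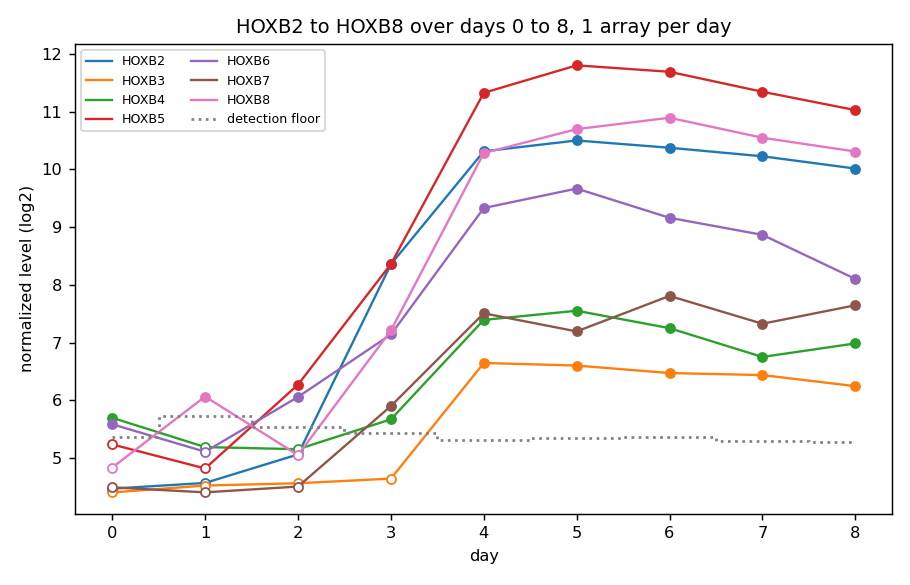
Normalized log2 level (vertical axis) of HOXB2 to HOXB8 against day of differentiation (horizontal axis), 1 array per day; filled points are detected, open points are not, and the dotted line is the detection floor of each array. All 7 genes were higher on day 4 than on day 3 by at least 2-fold, and HOXB6 then goes from 9.67 on day 5 to 8.10 on day 8.

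The 7 HOXB genes followed nearly the same course. Over the 9 days Pearson's r between their levels ran from 0.910 to 0.990 over 21 pairs, with a median of 0.955, a description of series that share the same 9 arrays. Between days 2 and 3, HOXB2, HOXB5, HOXB6 and HOXB8 were higher by at least 2-fold between the single arrays, which held for 2.46% of all tested genes. Between days 3 and 4 all 7 were, against 2.85% of all tested genes. No member was 2-fold lower in either step (1.75% and 2.32% of all tested genes were). From day 6 to day 7 and from day 7 to day 8, 0 of the 14 tested members differed by 2-fold in either direction, against 0.464% of all genes higher and 0.136% lower in the first of these steps and 0.532% and 0.125% in the second.

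Cell type markers moved over the same days. The summed linear level of 5 pluripotency genes fell from 14998 on day 0 to 2115 on day 4 and 418 on day 8, and that of 4 primitive streak genes was highest on day 2 (18024), with 10700 on day 3 and 3042 on day 4. The sum of 6 mesenchyme genes went from 1023 on day 3 to 7961 on day 4 and 33046 on day 8. The sum of 5 endoderm genes was 1714 on day 0, when AFP alone was detected. It was 266 on day 2, 1332 on day 3, 2778 on day 4 and 52861 on day 8. The endothelial and blood sums, of 5 genes each, were 817 and 143 on day 0 and 269 and 160 on day 3. They were 655 and 144 on day 4, and 2569 and 14419 on day 8. On day 0 CDH5, PECAM1 and KDR were undetected while TEK was at 9.44. Of 4 neural genes OTX2 and NES were detected on every day and PAX6 and SOX1 on none of the 13 arrays, and their sum was 1811 on day 0, 991 on day 4 and 280 on day 8. The part of these cell types in the HOXB course was not tested.

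In HOXC, 2 genes rose after day 4, and the other 2 detected had no rise that passed. HOXC6, expressed in the thoracic region of the embryo and in the forelimb, had levels of 5.32, 5.82, 5.67, 5.21, 5.99, 7.25, 7.94, 8.02 and 8.40 on days 0 to 8. It was under 6 on each day to day 4 and higher on each day after it. Between days 4 and 5 it was the only tested member higher by 2-fold, as were 3.89% of all tested genes, and 0 members were lower (1.82% of all). Day 8 was at least 8.13-fold above day 0, and the fitted rise from day 4 to day 8 was 2.12 ± 0.37 (SE) in log2 (limma, adjusted p = 0.00932). These values come from 1 of 4 probes. Another was detected on 1 day and the remaining ones on none.

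HOXC4, which starts from a promoter shared with neighbouring genes and is known from lymphoid cells, was detected on day 8 only. Its levels were 4.41, 4.47, 4.66, 4.32, 4.44, 4.79, 4.84, 5.15 and 5.64. Day 8 was at least 1.2-fold above day 0, and the fitted rise from day 4 to day 8 of 1.09 ± 0.21 (SE) in log2 (limma, adjusted p = 0.0145) rests on levels under the floor. Without background correction it no longer passed (limma, adjusted p = 0.059).

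HOXC8, a thoracic patterning gene that in the mouse shapes ribs and motor neuron pools, was detected early and late but not between. Its levels were 5.98, 7.35, 6.42, 5.08, 4.80, 6.18, 7.21, 7.78 and 7.55. Days 3 and 4 were undetected and all other days detected, with day 7 3.50-fold above day 0. It was at least 2-fold higher on day 1 than on day 0 and on day 6 than on day 5, as were 1.3% and 1.02% of all tested genes. In the second of these steps 0 members were lower, against 0.51% of all. Its trend did not pass (limma, adjusted p = 0.131), nor did the fitted change from day 4 to day 8, 2.25 ± 0.79 (SE) in log2 (limma, adjusted p = 0.119). HOXC13, a gene of hair and nail differentiation, was detected on all 13 arrays at levels between 5.35 and 6.16, and its trend did not pass (limma, adjusted p = 0.285).

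Day 1 carried the highest level of several genes outside HOXB. HOXA5, which in the mouse is needed for lung development, had levels of 5.18, 7.32, 6.03, 4.79, 4.88, 4.75, 4.60, 4.92 and 4.40. Days 1 and 2 were detected and the other 7 were not. Day 1 was at least 3.87-fold above day 0, and day 2 was at least 2-fold lower than day 1, as for 2.17% of all tested genes. Over that step 0 members were higher (1.86% of all). HOXD1, an early gene at the anterior end of its cluster, had levels of 6.04 and 5.85 on days 1 and 2, with day 1 at least 1.59-fold above day 0, and was undetected at 4.32 to 4.43 on the other days.

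HOXD3, a gene of neck vertebrae patterning in the mouse, was highest on day 1 at 6.34, with 5.41 on day 0 and 5.62 on day 8, and was undetected on days 3, 5 and 7. The trend did not pass for HOXA5 (limma, adjusted p = 0.183), HOXD1 (limma, adjusted p = 0.253) or HOXD3 (limma, adjusted p = 0.754). The day 1 array had the fewest detected probes (15134, against 16135 to 17833 on the other days) and the highest floor (5.73). Left without day 0, the trend passed for HOXA5 (limma, adjusted p = 0.00047), HOXC8 (0.00424) and HOXD1 (0.0083), so for these the call turned on 1 array.

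**Figure D3:**
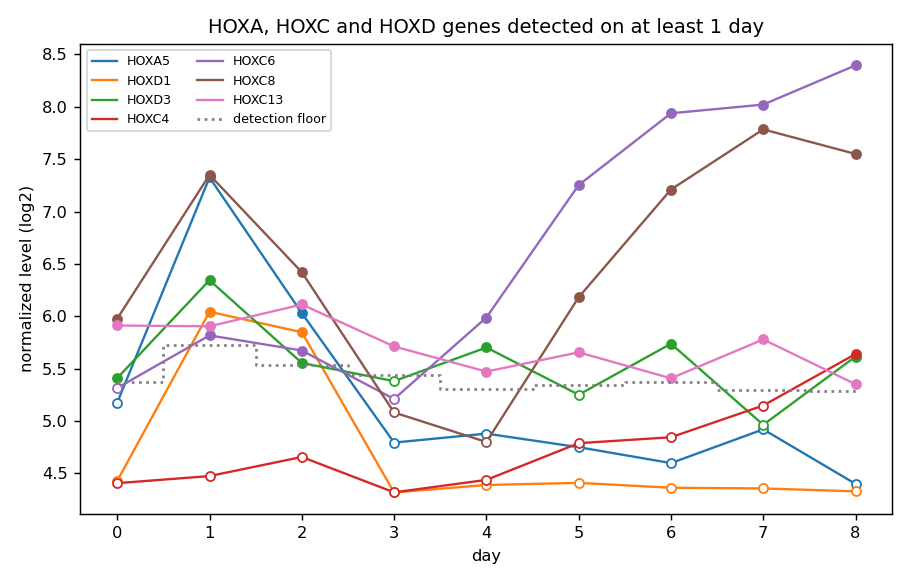
Normalized log2 level (vertical axis) of the HOXA, HOXC and HOXD genes detected on at least 1 day, against day (horizontal axis), 1 array per day; filled points are detected, open points are not, and the dotted line is the floor. HOXA5, HOXC8, HOXD1 and HOXD3 show a high point on day 1, and HOXC6 and HOXC8 are high again on days 6 to 8.

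Onset was set against position in the cluster in 2 ways. By the first day of detection that was kept on the next day, the HOXB genes began on day 2 (HOXB5 and HOXB6), day 3 (HOXB2, HOXB4, HOXB7 and HOXB8) and day 4 (HOXB3). The rank correlation of that day with gene number was -0.319 over 7 HOXB genes. In HOXC the 4 detected genes were first detected on day 8 (HOXC4), day 1 (HOXC6) and day 0 (HOXC8 and HOXC13), a rank correlation of -0.949. HOXC6 was near the floor on those early days, at 5.32 on day 0 and 5.82 on day 1 against floors of 5.37 and 5.73. It was undetected again on day 3, and HOXC8 on days 3 and 4. HOXC13 stayed near the floor with no trend that passed. The value over these 4 genes is therefore not read as an order of onset. HOXA5 and HOXD1 were first detected on day 1 and HOXD3 on day 0, and 1 or 2 genes give no order in HOXA or HOXD.

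By the day on which 0.5 of the log2 rise was reached, for genes at least 4-fold above their day 0 level (or its floor), the order in HOXB was HOXB2 (2.87), HOXB5 (3.08), HOXB6 (3.22), HOXB8 (3.30) and HOXB7 (3.43). HOXC6 reached it at day 4.71. The HOXB days span less than 1 day, the distance between arrays, and come from straight lines between daily arrays. Their rank correlation with gene number was 0.9 over 5 genes. With the submitters' own normalized values HOXB4 (3.55) joined and the correlation was 0.371 over 6 genes, so the order depends on where HOXB4 is placed. The correlations by the 2 measures of onset are over different numbers of HOXB genes and are not compared.

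**Figure D4:**
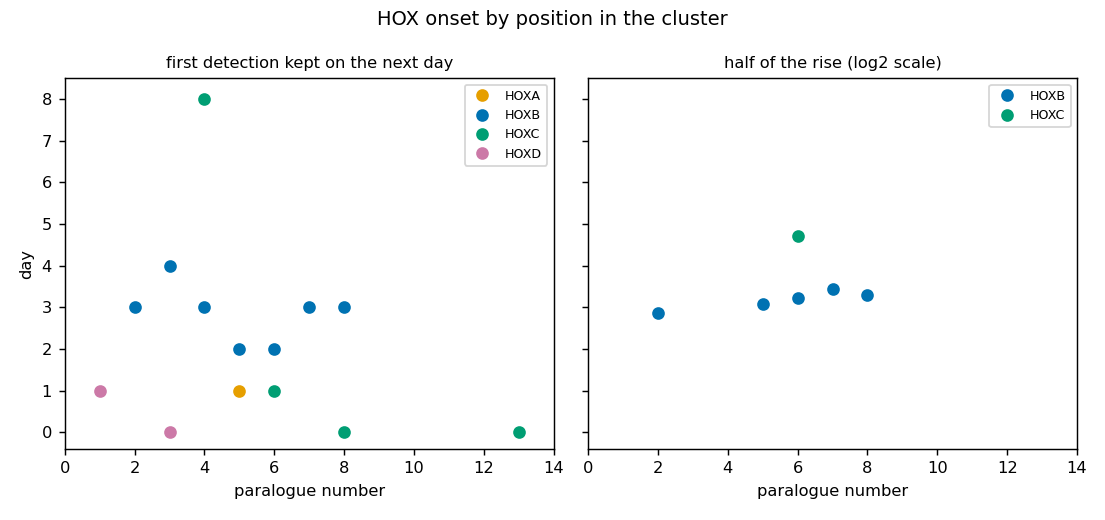
Day of onset (vertical axis) against gene number in the cluster (horizontal axis), coloured by cluster: left, first detection kept on the next day; right, the day at which 0.5 of the log2 rise was reached. HOXB points lie between days 2 and 4 on the left and between days 2.87 and 3.43 on the right, and HOXC6 lies at day 4.71.

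In the day 7 fractions HOXB2, HOXB4, HOXB5, HOXB6, HOXB7, HOXB8, HOXC6, HOXC13 and HOXD3 were detected in all 4. The CD34lo CD41lo fraction, where the blood genes were highest, held the lowest level of most of the HOXB genes. HOXB8 was 9.32 in CD34- CD41-, 8.72 in CD34lo CD41-, 9.16 in CD34hi CD41- and 6.15 in CD34lo CD41lo. The first 3 lay close together, and CD34lo CD41lo was 8.97-fold, 5.92-fold and 8.03-fold below them in that order.

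HOXB6 had levels of 8.11, 7.78, 7.85 and 6.26 in the same order, which puts CD34lo CD41lo 3.60-fold, 2.88-fold and 3.01-fold lower. HOXB5 had levels of 10.92, 11.14, 11.24 and 9.58, or 2.52-fold, 2.94-fold and 3.15-fold lower. For these genes the 3 CD41- fractions differed from each other by less than 2-fold. HOXB2 was graded, at 10.05, 9.89, 9.17 and 8.99, and CD34lo CD41lo was 2.09-fold below CD34- CD41-. HOXB3, at 6.43, 6.31 and 6.01 in the CD41- fractions, was undetected in CD34lo CD41lo. HOXB4, at 6.58, 7.07, 6.95 and 6.68, differed by less than 2-fold over all 4.

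HOXB7 was at least 2-fold higher in CD34hi CD41- than in each other fraction. It measured 6.69, 6.97, 8.01 and 5.74, so that CD34hi CD41- was 2.50-fold above CD34- CD41-, 2.06-fold above CD34lo CD41- and 4.81-fold above CD34lo CD41lo. HOXC6 was 6.75, 6.67, 5.94 and 5.57, with CD34lo CD41lo 2.26-fold and 2.14-fold below the first 2. HOXC13 and HOXD3 were within 5.37 to 6.16 in all fractions. HOXB1, which marks a single hindbrain segment, was detected in CD34- CD41- alone, at 5.35, just above that array's floor of 5.29. The floors of the other fractions were 5.32, 5.39 and 5.47, so no difference between fractions can be read for HOXB1.

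Of 11 members measured in the fractions, 5 were at least 2-fold lower in CD34lo CD41lo than in CD34- CD41- (HOXB2, HOXB5, HOXB6, HOXB8 and HOXC6), as were 11.1% of all genes measured. Against CD34lo CD41- 5 were lower (HOXB5, HOXB6, HOXB7, HOXB8 and HOXC6; 5.68% of all), and against CD34hi CD41- 4 (HOXB5 to HOXB8; 6.95% of all). In each of these 3 comparisons 0 members were higher, against 8.26%, 2.68% and 5.17% of all genes. HOXB7 was the 1 member higher in CD34hi CD41- than in CD34- CD41- (7% of all genes) or CD34lo CD41- (3.98% of all), and 0 were lower (8.9% and 4% of all). Between CD34lo CD41- and CD34- CD41- 0 members differed by 2-fold, against 2.64% of all genes higher and 4.23% lower. The median log2 difference of the members from CD34lo CD41lo was -0.96 against CD34- CD41-, -0.995 against CD34lo CD41- and -0.45 against CD34hi CD41-, with 0.10, 0.06 and 0.06 over all genes. With 1 array per fraction these are differences between libraries, with no test.

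The markers of other cell types moved with the fractions. The summed linear level of 6 mesenchyme genes was 19237 in CD34- CD41-, 14192 in CD34lo CD41-, 3362 in CD34hi CD41- and 1795 in CD34lo CD41lo, with DCN and POSTN undetected in the last 2. The sum of 5 endothelial genes was 1099, 5287, 15097 and 3854 in the same order, and that of 5 blood genes was 4049, 6020, 511 and 17864. The sum of 5 endoderm genes was 37738, 26614, 1529 and 1673. CD34 itself was at 8.52, 10.58, 12.88 and 10.06 in that order, detected also in the CD34- CD41- fraction. ITGA2B, which encodes CD41, was undetected in CD34- CD41- and CD34hi CD41- and was at 5.96 in CD34lo CD41- and 9.19 in CD34lo CD41lo. The part of these cell types in the HOX differences was not tested.

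**Figure D5:**
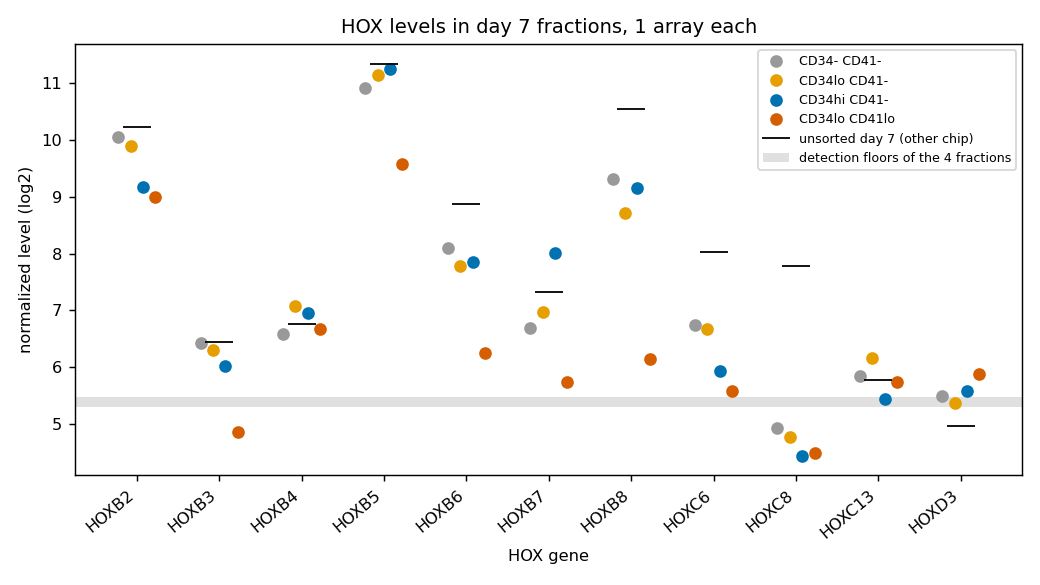
Normalized log2 level (vertical axis) of HOX genes detected on day 7 or in a fraction (horizontal axis) in the 4 sorted day 7 fractions, coloured points with 1 array each, and in unsorted day 7 cells on another chip, black bars; the grey band spans the detection floors of the fractions, and HOXB1 is left out. The CD34lo CD41lo point is the lowest for HOXB2, HOXB3, HOXB5, HOXB6, HOXB7, HOXB8 and HOXC6, and the HOXB7 point of CD34hi CD41- is the highest of its column.

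Unsorted day 7 cells did not always lie within the range of the fractions. Of 12 members detected in either, 7 were higher in the unsorted cells than in every fraction, as were 17.3% of all genes, and 3 were at least 2-fold higher, as were 0.743% of all genes. Among the 7, HOXB3 (0.004 in log2), HOXB5 (1.07-fold) and HOXB2 (1.13-fold) were barely above the highest fraction. HOXC8, at 7.78 in unsorted cells, was undetected in all 4 fractions and so at least 4.96-fold above them. HOXC6 was 2.41-fold and HOXB8 2.34-fold above the highest fraction. The fractions need not add up to all the cells, and sorting and chip cannot be told apart here.

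The partners and regulators of HOX genes were followed in a list of 23 genes, of which 18 were on the array and 15 were detected over the days. The trend passed for 10 of the 15 (38.8% of all tested genes). From day 0 to day 4, 6 rose and 1 fell (6.28% and 5.92% of all). From day 4 to day 8, 1 rose and 1 fell (4.94% and 2.64% of all), and from day 0 to day 8, 5 rose and 2 fell (11.8% and 10.2% of all). Unless another interval is named, the fitted changes given next are those from day 0 to day 8. MEIS2 and MEIS1, HOX partner proteins, rose by 5.76 ± 0.62 and 3.22 ± 0.57 (SE) in log2 (limma, adjusted p = 0.000361 and 0.00368). MEIS2 was at 4.43, 4.73 and 4.59 on days 0 to 2, 6.62 on day 3 and 9.53 on day 4, and was first detected on day 3.

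CDX2, an upstream activator of HOX genes, rose by 4.44 ± 0.31 (SE) in log2 (limma, adjusted p = 5.12e-05). It was first detected on day 1, at 5.87, and was at 7.62 on day 2. In the fractions CDX2 was at 6.84 in CD34- CD41- and 5.84 in CD34lo CD41-, and was undetected in CD34hi CD41- and CD34lo CD41lo. CDX4, of the same family, fell by 1.73 ± 0.55 (SE) in log2 (limma, adjusted p = 0.0463), from 5.79 on day 0 and 6.84 on day 1 to 4.49 on day 8. CDX4 was undetected on every day from day 3 on, and the day 8 floor was 5.29. The size of its fitted fall therefore rests on levels under the floor. CDX1, whose trend over days passed (limma, adjusted p = 0.0151), was 8.12 on day 2 against 4.52 on day 0. The fitted change of CDX1 from day 0 to day 8 did not pass. PBX2, a partner protein, rose by 1.65 ± 0.26 (SE) in log2 (limma, adjusted p = 0.00224). EZH2, the Polycomb methyltransferase, fell by 1.75 ± 0.32 (SE) in log2 (limma, adjusted p = 0.00458), from 8.49 on day 0 to 6.76 on day 8. Its fitted change from day 0 to day 4, -0.29 ± 0.28 (SE), did not pass (limma, adjusted p = 0.549). The fall from day 4 to day 8, -1.47 ± 0.28 (SE), did (limma, adjusted p = 0.0131). In the fractions EZH2 was 7.56, 8.15, 7.68 and 8.66 from CD34- CD41- to CD34lo CD41lo. The part of these partners and regulators in the HOX course was not tested.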

How the data were processed

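Total RNA of 13 samples was measured on Illumina BeadChip arrays. The deposited intensity values have a background subtracted (the lowest is -28.8) and are not normalized between arrays; per the file headers a detection fraction, where higher means more certain, stands beside each. The deposited log2 values of the series matrix were an alternative, with a transformation that the sources used here do not give. The submitters' processing notes name GenomeStudio 2010.2 and lumi.

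Intensities were corrected and quantile normalized with neqc of limma 3.58.1 (R 4.3.3, offset 16), taking detection p as 1 minus the deposited fraction. Of 47231 probes 1 was dropped for missing values. Array symbols were updated to current RefSeq names (4649 probes). The probe with the highest mean among a gene's detected probes stood for it, and a probe with no symbol stood for itself. A natural spline of 3 degrees of freedom left 5 residual degrees of freedom, and its moderated F test and fitted changes were Benjamini-Hochberg adjusted over 17657 genes. The residual spread comes from departures of single daily arrays from the curve, not from replicates, so p-values measure only that. The fit was tested on simulated data with straight changes from day 0 to day 8, which does not cover courses that step up between neighbouring days. Fraction differences were called at 2-fold with the brighter array detected and a dim one raised to its floor, the lowest level of its detected probes; "at least" marks a fold against an undetected level, and the floor is taken per array. All detected members are named with values, and of the 23 pathway genes the 6 with the largest passing change. The members and lists were chosen with earlier results of these data known. Alternatives were other normalizations, filters, detection limits, spline degrees and leaving out each day. The number of arrays, 1 per day, limits the precision.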

Additional observations from a re-analysis of the deposited data

How the results depend on the processing

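With each day left out in turn, 8 to 12 members had a trend; the 12 came without day 0 and the 8 without day 8. Changes between days were not refitted without day 0 or day 8, which end the intervals, and without any other single day 5 to 6 members rose from day 0 to day 4, 2 from day 4 to day 8, and 7 to 8 from day 0 to day 8. Fitted changes that had not passed changed sign in some alternatives, and did not pass there either (log2). HOXB4 from day 4 to day 8, at -0.07, was 0.026 with the submitters' own values and 0.41 with a spline of 2 degrees of freedom, and ran from -0.16 to 0.29 with single days left out. With single days left out, HOXB3 from day 4 to day 8 ran from -0.0098 to 0.54 and HOXD1 from day 0 to day 4 from -0.47 to 0.19. HOXD3 ran from -0.27 to 0.079 from day 0 to day 4, from -0.17 to 0.12 from day 4 to day 8 and from -0.29 to 0.021 from day 0 to day 8. Without background correction 1 member rose from day 4 to day 8. At a detection p below 0.05, 4 HOXA and 5 HOXD genes were detected on any day and 2 HOXA and 3 HOXD genes in any fraction; at 0.001, 1 HOXD gene was detected on any day. First detection at 0.05 gave rank correlations of -0.206 in HOXB and -0.775 in HOXC. The half-rise correlation in HOXB was 0.371 with the submitters' own values and 1 over 4 genes without background correction, the latter chosen after seeing the data. In the fractions the submitters' own values put 1 member lower in CD34hi CD41- than in CD34- CD41- and 1 lower than in CD34lo CD41-. Without background correction 0 were higher in CD34hi CD41- than in CD34lo CD41-, and 3 were lower in CD34lo CD41lo than in CD34lo CD41-. At 4-fold, 0 were higher in CD34hi CD41- than in CD34- CD41- and 0 than in CD34lo CD41-, while 1, 1 and 2 were lower in CD34lo CD41lo than in CD34- CD41-, CD34lo CD41- and CD34hi CD41-. Where not fixed by the alternative's own construction, the cause was not tested. Of single genes, HOXB3 from day 0 to day 8 missed the threshold with no filter (limma, adjusted p = 0.0597) and without day 7 (0.0509), HOXC4 from day 0 to day 8 was under 2-fold without background correction (0.97 in log2), and HOXB4 from day 0 to day 8 passed with a spline of 2 degrees of freedom (2.12 in log2, adjusted p = 0.0154). The slide could not be used as a block because each experiment lay on 1 chip. No paired analysis was possible because each group has 1 array and nothing links a sorted to an unsorted array.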
